A study of Homo sapiens with 28 samples.

Results

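Chromatin accessibility at promoters that were open in every sample of a panel of human myeloma cell lines was described here. ATAC-seq inserts sequencing adapters into DNA that is not wrapped around nucleosomes, so that the number of reads in a region measures how accessible it was. The panel held 22 untreated lines (H1112, Karpas620, KMS11, KMS12BM, KMS12PE, KMS18, KMS20, KMS21BM, KMS26, KMS27, KMS28, KMS34, L363, LP1, MM1S, OCIMY5, OPM2, PCM6, PE1, RPMI8226, U266 and XG-6), each assayed once. For 6 of them (Karpas620, KMS27, L363, MM1S, OPM2 and RPMI8226) there was also 1 library from cells given 10 µM lenalidomide and taken on day 3, which gives 28 libraries in all. Whether the untreated cultures received a vehicle is not given in the sources used here. All are established lines grown in culture, and no line was assayed again under the same condition.

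A region was taken when it had at least 1 peak of its own in all 28 libraries and overlapped an annotated transcription start (distance 0 in the deposited table). This left 5254 of 154985 regions, and 5254 of the 18012 regions at a start. The deposited column behind the choice is not defined in the file and was read as the number of a library's own peaks that fall in the region, with any value above 0 counted as open. The promoter regions were thus chosen by these peak calls and by their position, and are open by construction, and their openness and level are described here without a test. They carried the names of 5162 genes, and all 5254 passed the filter on low counts.

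Promoters are the stretches around transcription starts where transcription factors and RNA polymerase assemble. Most promoters of genes that every cell needs lie in CpG islands, stretches rich in unmethylated CG pairs that stay free of stable nucleosomes in nearly all tissues, and many of them drive transcription in both directions. Promoters of genes used by 1 lineage are more often poor in CG pairs and depend on the factors of that lineage to open. Multiple myeloma is a cancer of plasma cells, the antibody-secreting end stage of B cells. Lenalidomide binds cereblon, the substrate receptor of a ubiquitin ligase, and leads it to destroy the lymphoid transcription factors IKZF1 and IKZF3.

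The openings differed in sequence, and 9 of them are printed to show the kinds that the results below turn on. Each is a stretch of 150 bases upstream of the canonical coding start (GENCODE annotation, GRCh37 sequence), read on the strand of the gene, and was moved outward where needed so that at most 30 bases lie in an annotated exon. RGS1 (chr1:192544753-192544902, plus strand) and CD28 (chr2:204571078-204571227, plus strand) stand for the few lineage promoters with little CpG. PDIA4 (chr7:148725725-148725874, minus strand), RPS3A (chr4:152020630-152020779, plus strand) and GTF3C1 (chr16:27561235-27561384, minus strand) stand for the CpG-rich majority. Of these, RPS3A and GTF3C1 also lay in regions that fell with lenalidomide. CD274 (chr9:5450383-5450532, plus strand), IFIH1 (chr2:163175195-163175344, minus strand), GIPC1 (chr19:14606940-14607089, minus strand) and PPFIBP1 (chr12:27676955-27677104, plus strand) belong to regions that changed with lenalidomide. Capitals mark a match to any of the 14 short motifs searched on both strands, whose letters are given with the motif counts.
RGS1: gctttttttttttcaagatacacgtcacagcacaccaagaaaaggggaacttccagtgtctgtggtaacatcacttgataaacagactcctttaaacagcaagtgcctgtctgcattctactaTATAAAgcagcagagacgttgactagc
CD28: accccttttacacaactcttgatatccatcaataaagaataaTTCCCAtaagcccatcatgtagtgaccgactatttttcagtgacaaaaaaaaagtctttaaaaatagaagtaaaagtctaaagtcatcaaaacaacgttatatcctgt
PDIA4: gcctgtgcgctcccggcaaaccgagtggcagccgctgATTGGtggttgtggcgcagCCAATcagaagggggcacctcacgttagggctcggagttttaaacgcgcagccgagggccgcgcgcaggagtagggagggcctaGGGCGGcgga
RPS3A: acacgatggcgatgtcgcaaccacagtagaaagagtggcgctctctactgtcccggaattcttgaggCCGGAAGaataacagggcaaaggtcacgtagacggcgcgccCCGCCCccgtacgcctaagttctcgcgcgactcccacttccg
GTF3C1: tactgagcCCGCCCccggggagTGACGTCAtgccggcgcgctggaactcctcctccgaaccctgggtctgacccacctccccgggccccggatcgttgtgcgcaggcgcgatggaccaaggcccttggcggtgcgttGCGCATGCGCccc
CD274: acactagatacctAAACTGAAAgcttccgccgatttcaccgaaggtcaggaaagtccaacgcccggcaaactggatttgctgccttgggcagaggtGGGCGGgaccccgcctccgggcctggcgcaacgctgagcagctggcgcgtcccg
IFIH1: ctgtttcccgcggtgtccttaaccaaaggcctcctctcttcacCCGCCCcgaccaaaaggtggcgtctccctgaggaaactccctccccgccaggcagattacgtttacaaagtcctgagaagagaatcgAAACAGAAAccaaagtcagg
GIPC1: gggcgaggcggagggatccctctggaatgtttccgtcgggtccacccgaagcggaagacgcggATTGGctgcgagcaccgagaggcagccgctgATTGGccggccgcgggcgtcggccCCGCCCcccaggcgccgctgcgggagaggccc
PPFIBP1: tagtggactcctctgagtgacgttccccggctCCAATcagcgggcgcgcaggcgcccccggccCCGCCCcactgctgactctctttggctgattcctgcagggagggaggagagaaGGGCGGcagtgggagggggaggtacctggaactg
The CD28 stretch had 1 match, to the IKZF1 letters. The RGS1 stretch had a TATA box whose first base was 27 bases before the start. The GTF3C1 stretch joined a CREB site, a GC box and a pair of overlapping NRF1 sites, and PDIA4 carried CCAAT boxes in both orientations. CD274 and IFIH1 each held 1 match to the interferon response letters together with a GC box. Such a match describes the letters only and is no evidence that a factor was bound.

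Openness in all libraries was more common at starts. Of the regions at a start, 29.2% had a peak in all 28 libraries, against 0.579% of regions away from a start. Regions away from a start were most often found in 1 library (40.9% of them), and only 9.03% of regions at a start were. The promoter regions open in all libraries had a median width of 1097 bp (456 to 2906), against 693 bp for the other regions at a start. Width and level bear on whether a peak is called, so these differences accompany the rule and were not tested.

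**Figure D1:**
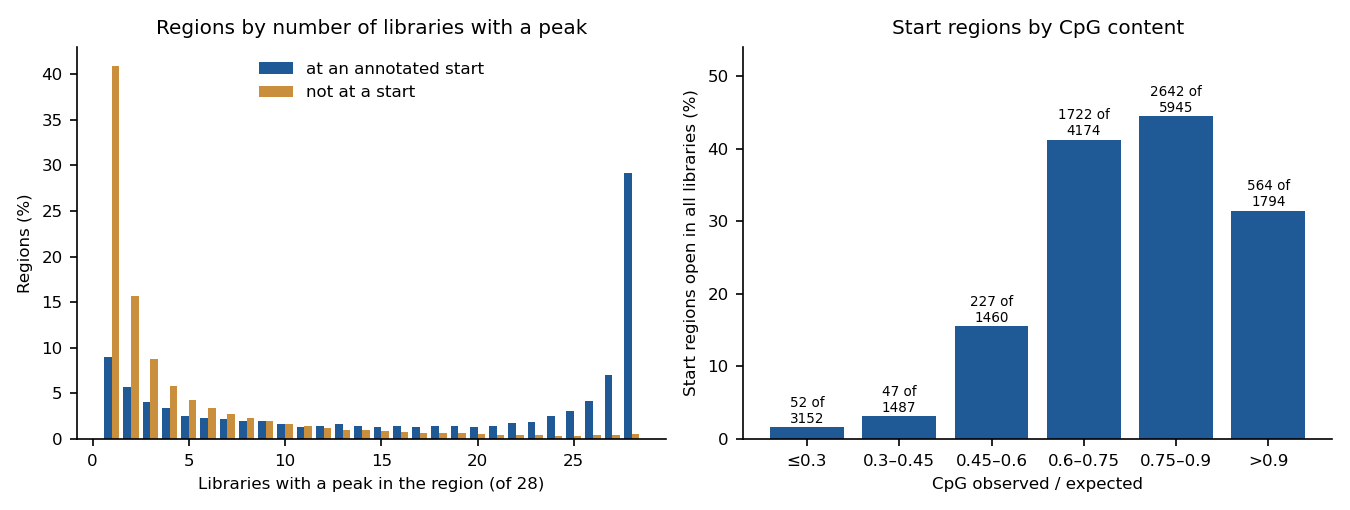
Left, regions (% of those at a start or not at a start) by the number of libraries with a peak, from 1 to 28. Right, regions at a start that were open in all 28 libraries (%) by the ratio of observed to expected CpG, with counts above the bars. Start regions pile up at 28 libraries (29.2%), and the share open in all libraries is 1.65% in the lowest CpG class and 44.4% between 0.75 and 0.9.

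At the edge of the rule, 1262 further regions at a start had a peak in 27 libraries. Their median level over the untreated lines was 28.3 CPM (the count of a region per 1000000 counts of its library in all regions), against 46.6 CPM inside the rule. The library without the peak was PE1 for 492 of these regions, KMS21BM for 184, KMS26 for 124 and XG-6 for 75. These were the libraries with the fewest counts in regions, 1599857 for PE1, 1602855 for XG-6, 1635784 for KMS26 and 1680329 for KMS21BM, where the untreated libraries reached 5564534. The numbers did not follow depth throughout, since KMS18, with 1782959 counts, lacked 27 and KMS12BM, with 3802586, lacked 40. Without PE1 the rule would have taken 5746 promoter regions. Leaving out any other single library gave between 5254 and 5438. The lowest count of any of the 5254 regions in any library was 9.

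The libraries labelled PE1 and KMS34 resembled each other more than any other pair of lines. Deviations from the mean of the untreated lines were correlated over the 5254 promoter regions, a description in which all regions share library depth and base composition. PE1 and KMS34 gave r = 0.630. The other 230 pairs of untreated lines ranged from -0.333 to 0.349, the highest being KMS12PE and KMS12BM, a pair of lines known to come from 1 patient. Over the medians of the 22 chromosomes, PE1 and KMS34 gave r = 0.941 and the next highest pair 0.615. The treated library of a line gave 0.762 to 0.859 with its own untreated library over the promoter regions and 0.876 to 0.965 over chromosomes. The labels name PE1 and KMS34 as different lines, and whether they are was not tested here. Values over untreated lines are therefore also given without each of them where they are summarised.

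The promoter regions took a large and variable share of each library. In the untreated lines, 23.4% (H1112) to 39.4% (KMS27) of all counts in regions lay in them, with a median of 28.3% and an SD of 4.39 points (n = 22). The median was 28.4% without PE1 and 28.2% without KMS34. They covered 6069 kb, and made up 8.91% (H1112) to 27.7% (L363) of the regions with a peak in a library. H1112 had the most counts and the most open regions (58983) and the lowest share, so that depth, breadth of calling and share moved together in that line. Their part in the share was not tested.

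The highest levels were at regions on chromosomes 1, 3 and 7. FAM72D (chr1:143912880-143914459) had a median of 342 CPM and ranged from 69.98 CPM in KMS12PE to 733 CPM in KMS27. RP11-61L23.2 (chr7:143533023-143534751) had a median of 286 CPM. Both lie in duplicated sequence, since 89.4% and 95.8% of their 31-base words occur elsewhere in the genome, so their levels may hold reads of other copies and are uncertain. Next came 3 genes of the long arm of chromosome 3, whose words are nearly all unique. PDCD10, a partner of STK kinases that is lost in cerebral cavernous malformation, shares its region with the divergent gene SERPINI1 (chr3:167452114-167453795) and had 262 CPM, from 135 in H1112 to 391 in MM1S. GOLIM4, a Golgi membrane protein (chr3:167812401-167814408), had 259 CPM, from 161 in H1112 to 356 in RPMI8226. C3orf58 (chr3:143689669-143692399) had 242 CPM, from 129 in OCIMY5 to 322 in LP1. The ranges of these 3 genes over the lines overlapped, and their order does not go beyond the spread.

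The lowest levels were near 10 CPM. POC1B, a centriole protein (chr12:89855493-89856113), had a median of 9.12 CPM, from 6.03 in KMS28 to 17.5 in PE1. RP11-156P1.3 (chr17:45144562-45145047) had 9.40 CPM, from 4.94 in KMS20 to 19.4 in U266. DNAL4, a dynein light chain that shares its region with SUN2 (chr22:39189879-39190623), had 11.1 CPM, from 3.22 in KMS20 to 21.2 in RPMI8226. MRPL28, a mitochondrial ribosomal protein (chr16:420304-421064), had 12.3 CPM and ZNF598, a ubiquitin ligase that senses collided ribosomes (chr16:2059566-2060460), had 12.5 CPM. Their ranges over the 22 lines overlapped as well. POC1B and RP11-156P1.3 also had little CpG, with observed to expected ratios of 0.185 and 0.347.

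CpG content was higher in these promoters than in the other starts, with overlap. The ratio of observed to expected CpG had a median of 0.778 in the promoter regions open in all libraries, 0.650 in the other regions at a start, and 0.351 in the 793 distal regions that were also open in all 28 libraries. A ratio above 0.6, a common mark of a CpG island, was met by 93.8%, 54.8% and 30.4% of the 3 classes. The GC content differed less, with medians of 62.2%, 60.8% and 52.1%. The share of start regions that were open in all libraries rose from 1.65% at ratios of at most 0.3 to 44.4% between 0.75 and 0.9 and was 31.4% above 0.9. GC content can affect how well a fragment is amplified and counted, and its part was not tested.

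The promoters were also often divergent. Starts of coding or long noncoding genes on both strands lay in 39.4% of them (2068 regions) and in 12.9% of the other regions at a start. For coding genes on opposite strands the shares were 16.9% and 3.83%. The promoter regions open in all libraries were wider (median 1097 bp against 693 bp), and a wider region can hold more starts. No coding or long noncoding start of this annotation lay in 43 of them and in 1163 of the 12758 other regions at a start. The part of width and annotation in these shares was not tested. Regions with starts on both strands had a median of 51.9 CPM and those with starts on 1 strand 43.6 CPM, and per kilobase of region 43.9 and 40.5 CPM. Of the 18978 autosomal coding genes, 5619 (29.6%) had their canonical start in one of these regions.

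Only 99 of the promoter regions had a CpG ratio of at most 0.45, and genes of lymphoid or antiviral function were among them. The genes named from them here were chosen after their values were seen. TNFRSF17, which encodes the plasma cell receptor BCMA (chr16:12058159-12059152), had a ratio of 0.309 and 38.3 CPM, from 16.3 in Karpas620 to 52.1 in KMS12BM. POU2AF1, a coactivator of the octamer factors of B cells (chr11:111249257-111250951), had 0.366 and 52.9 CPM, from 26.4 in KMS28 to 119 in Karpas620. CD28, a costimulatory receptor that plasma cells also carry (chr2:204570837-204571596), had 0.344 and 34.3 CPM, from 22.1 in KMS20 to 49.8 in U266. All 3 lay well inside the range of levels of the CpG-rich promoters.

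Others of the 99 spread far more between lines. RGS1, a regulator of G-protein signalling in lymphocytes (chr1:192544473-192545115), ran from 9.18 CPM in L363 to 98.5 in KMS27, with a median of 28.7. FLI1, an ETS factor of blood cells (chr11:128627040-128628395), ran from 10.6 CPM in KMS11 to 219 in H1112, with a median of 36.6. CIITA, which switches on MHC class II genes (chr16:10970611-10971731), had 39.3 CPM, and IL21R, a cytokine receptor (chr16:27413203-27414000), had 19.3 CPM. The antiviral genes IRF9 (24.8 CPM), DHX58 (17.1), TRIM21 (36.4), TRIM38 (25.8) and SP110 (13.2) lay below the median of all promoter regions. Over the 99 regions the median level was 35.8 CPM and the median SD over lines 0.535 on the log2 scale, against 46.6 CPM and 0.491 over all 5254.

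Short motifs near the starts also differed in their share. Windows from 250 bases before to 50 bases after the canonical start of 18978 coding genes were searched on both strands for exact letters, and no motif holds another whole. ETS sites (CCGGAAG) were in 26.0% of windows whose start lay in a promoter region open in all libraries, 15.7% of those in another region, 2.59% of those in no region and 14.2% of all. NRF1 sites (GCGCATGCG) were in 5.16%, 2.96% and 0.427%, and YY1 sites (AAGATGGCG) in 5.64%, 3.06% and 0.32%. ZBTB33 sites (TCTCGCGAG) were in 2.22%, 0.882% and 0.107%, and THAP11 and ZNF143 sites (ACTACAATT) in 1.09%, 0.279% and 0.122%. These motifs had their highest share in the promoter regions open in all libraries.

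GC boxes (GGGCGG) were in 77.4%, 71.3% and 38.7%, and CCAAT boxes (CCAAT) in 43.8%, 32.1% and 32.5%. CREB sites (TGACGTCA) were in 4.41%, 2.94% and 1.02%, E-boxes (CACGTG) in 11.4%, 9.81% and 5.29%, and E2F sites (TTCCCGCC) in 6.23%, 4.84% and 2.09%. The order ran the other way for 3 motifs of regulated promoters. TATA boxes (TATAAA) were in 3.61%, 6.66% and 17.9%, AP-1 sites (TGANTCA) in 2.44%, 4.96% and 8.20%, and interferon response letters (TTTCNNTTT) in 6.07%, 8.35% and 10.8%. The median GC content was 65.3% in the windows of the promoter regions and 63.7% in all windows. Within 60% to 70% GC, the first 2 shares were 2.66% and 4.69% for TATA boxes and 2.49% and 4.78% for AP-1 sites. For the interferon response letters they were 4.60% and 5.40%. The part of base composition in the motif shares was not tested. IKZF1 letters (TGGGAA) differed least, at 22.03%, 19.91% and 24.02%.

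**Figure D2:**
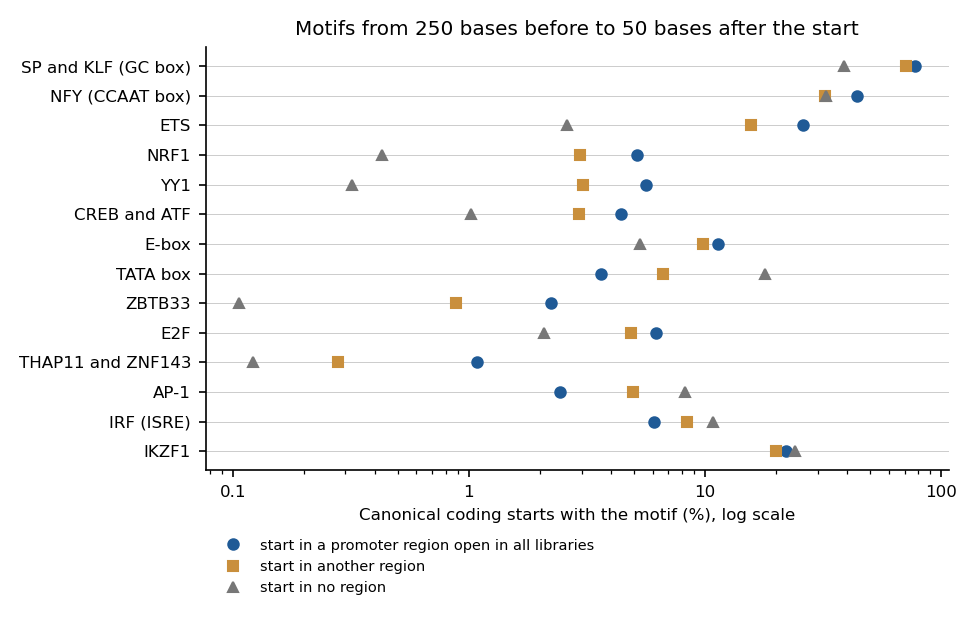
Share of canonical coding starts (%, log scale) with each of 14 motifs in the window from 250 bases before to 50 bases after the start. Circles stand for starts in a promoter region open in all libraries (n = 5619), squares for starts in another region (n = 6801) and triangles for starts in no region (n = 6558). Circles lie to the right for ETS, NRF1, YY1 and ZBTB33 and to the left for TATA box, AP-1 and the interferon response letters.

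Lists of genes of basic cell functions were counted next, by any annotated start. Of all 18978 autosomal coding genes, 31.5% had a start in one of the regions. Of 73 cytoplasmic ribosomal protein genes, 44 had a start in one of the regions, at 19.5 CPM (RPL21) to 138 CPM (RPL7), with a median of 41.2. The counts were 22 of 31 for proteasome subunits (median 35.8 CPM), 22 of 29 for the spliceosome core (38.9), 24 of 35 for mitochondrial complex I (45.7) and 5 of 12 for RNA polymerase II subunits (42.1). Replication licensing, the loading of helicases onto origins, had 16 of 21 genes at a median of 58.5 CPM, from GINS2 at 20.9 to ORC6 at 123. The unfolded protein response and secretion, which plasma cells need to make antibody, had 25 of 30 genes at a median of 58.2 CPM, from SSR2 at 22.3 to the protein disulfide isomerase PDIA4 at 180. These medians stand beside 46.6 CPM over all 5254 regions. Region widths differ, and levels were compared here per region and not per length.

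Some genes of the drug's own pathway were present too. Of the 8 genes in the cereblon list, 5 met the rule (62.5%, where 31.5% of all coding genes did by any start). The other 3, the ligase subunit CUL4A and the substrates IKZF1 and IKZF3, had a start in a region that lacked a peak in at least 1 library or was not at a start. The 5 members of the cereblon list were CRBN itself (48.5 CPM, from 22.7 in KMS28 to 74.6 in KMS26), the ligase subunits DDB1 (25.0) and RBX1 (48.7), and the substrates CSNK1A1 (60.1) and ZFP91 (139, in a region shared with LPXN). Of 12 plasma cell genes, PRDM1, POU2AF1 and TNFRSF17 met the rule (25%, where 31.5% of all coding genes did by any start), with PRDM1, the master regulator Blimp-1 of plasma cells (chr6:106533828-106534469), at 26.7 CPM. The other 9 had a start in a region that lacked a peak in at least 1 library or was not at a start. None of 10 B cell, 10 T cell, 10 myeloid or 10 liver markers was among the promoters. Of 10 erythroid markers 1 was, EPOR, the erythropoietin receptor, at 59.7 CPM. Of 36 interferon-stimulated genes, 7 were.

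Levels varied less between lines than at other regions of like level. The SD over the 22 lines, of log2 of CPM plus 1, had a median of 0.491 (0.210 to 1.28) over the promoter regions, where counting error alone gives a median of 0.140. The ratio of the highest to the lowest line had a median of 3.82. Between 40 and 80 CPM, the median SD was 0.493 in 2546 of these regions, 0.546 in 275 distal regions open in all libraries, 0.856 in 591 other regions at a start and 1.05 in 293 other distal regions. The last 2 classes lack a peak in some library by definition, so their larger SD accompanies the rule and was not tested. The median SD was 0.489 without PE1 and 0.496 without KMS34.

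The least variable regions, relative to the 200 regions nearest in mean, were those of GMCL1, RP11-191L17.1, UBR2, ZNF142 and RPE. GMCL1 (chr2:70056186-70057796) ran from 40.6 CPM in Karpas620 to 73.6 in KMS12BM. UBR2, a ubiquitin ligase of the N-end rule (chr6:42531373-42532384), ran from 38.1 in PE1 to 66.4 in KMS27, and RPE, an enzyme of the pentose phosphate pathway (chr2:210866817-210867984), from 56.2 in Karpas620 to 101 in KMS12PE. RP11-191L17.1 (chr2:48667370-48668348), divergent from PPP1R21, and ZNF142 (chr2:219523447-219524703), divergent from the complex III assembly factor BCS1L, had SDs of 0.219 and 0.224. In 4 of these 5 the gene lay on chromosome 2, which held 431 of the 5254 promoter regions. With 5 regions picked by their SD, nothing is drawn from this.

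The most variable were FAM86KP, FAM86DP, TLR5, BRF1 and MPP7. FAM86KP (chr4:9153891-9155438) and FAM86DP (chr3:75483756-75485396) belong to a family of near-identical copies, with 48.02% and 45.003% of their words found elsewhere, so that their values are uncertain. TLR5, the receptor for bacterial flagellin (chr1:223316176-223317719), ran from 6.57 CPM in KMS12BM to 184 in KMS21BM, with a median of 74.7. PCM6 had 13.5 CPM there and KMS12PE 21.9. MPP7, a cell polarity scaffold (chr10:28591428-28592506), was at 5.79 CPM in KMS12BM and 6.62 in KMS12PE, where the median was 56.2, so the paired lines of 1 patient were the lowest together. BRF1, a subunit of the RNA polymerase III initiation factor that lies beside the immunoglobulin heavy chain locus (chr14:105766921-105768415), was lowest in PE1 (6.25 CPM) and KMS34 (12.98) and highest in KMS12BM (201) and KMS12PE (176). At KDSR, KMS12PE stood alone at 396 CPM, where KMS12BM had 69.4 and the next highest line, KMS26, 101, a region named after its values were seen.

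A large part of the differences between lines was common to neighbours on a chromosome. After each region's mean and each library's median were removed, the means of the 22 chromosomes in each line held 20.7% of the remaining variation (21.01% without PE1 and 20.3% without KMS34). With 289 bins of 10 Mb in place of chromosomes, the share was 54.7%. The largest chromosome medians were 0.81 on the log2 scale for chromosome 14 in Karpas620, a fold of 1.75 over 172 regions, and 0.65 for chromosome 8 in KMS18. The lowest were -0.94 for chromosome 22 in KMS12PE, a fold of 0.522 over 47 regions, -0.76 for chromosome 19 in KMS12PE and -0.73 for chromosome 22 in KMS28. KMS12BM shared the low chromosome 19 (-0.65).

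**Figure D3:**
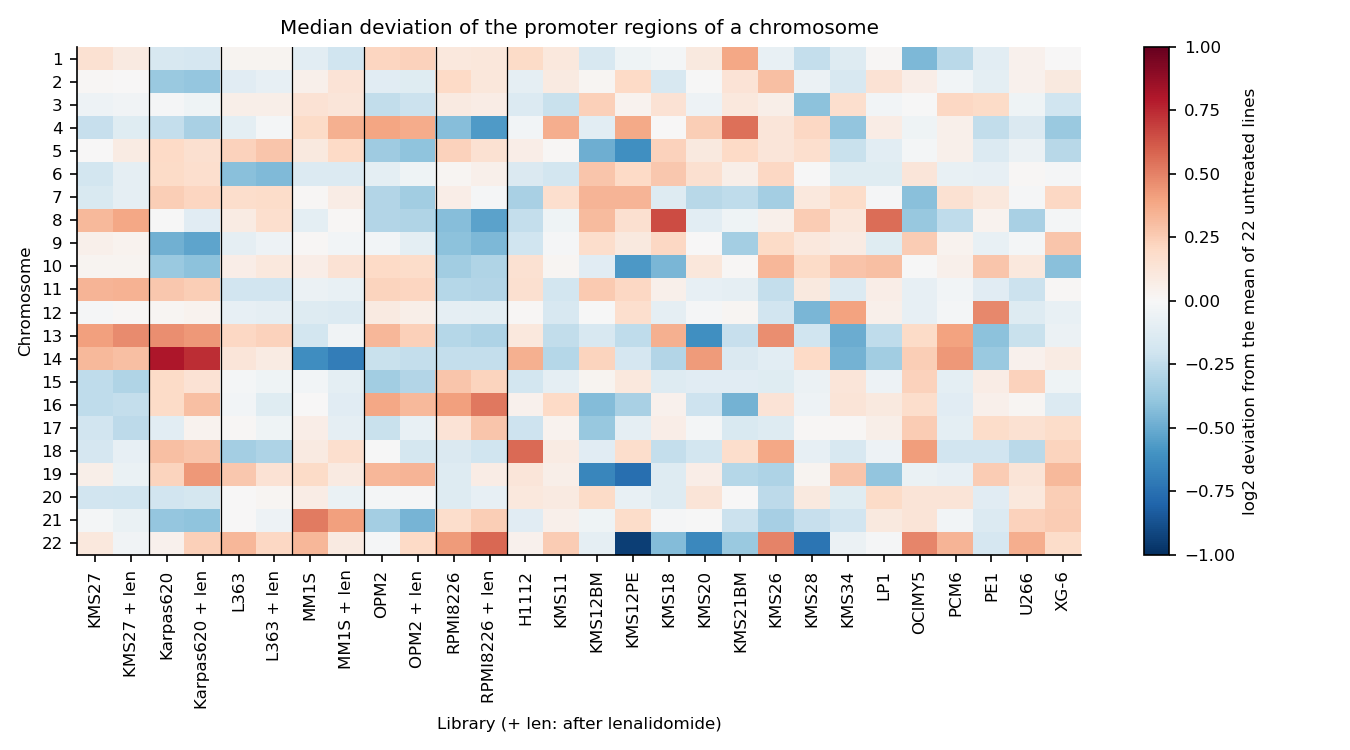
Median log2 deviation from the mean of the 22 untreated lines (colour, from -1 to 1) over the promoter regions of each chromosome (rows) in each of the 28 libraries (columns). The first 12 columns pair the untreated and treated library of a line. Paired columns repeat each other, as at chromosome 14 in Karpas620, where the untreated median was 0.81, and PE1 matches KMS34.

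The pattern came back in the second library of a line. Over chromosomes, the treated library correlated with its own untreated library at r = 0.965 in Karpas620, 0.947 in KMS27, 0.950 in L363, 0.876 in MM1S, 0.949 in OPM2 and 0.965 in RPMI8226. The best other line reached 0.310 to 0.700. Both libraries of a line share its genome, its culture and possibly its processing. Copy number differs between myeloma lines and was not removed, and its part in these values was not tested.

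Shorter segments stood out further. Over all bins of 10 Mb with at least 5 of the promoter regions and 22 lines, 59 of 5852 medians were beyond 1 on the log2 scale, 14 above and 45 below. The bins named here were chosen after their values were seen. On chromosome 12 between 20 and 30 Mb, all 18 promoter regions were higher in KMS26 than the mean of the lines, with a median of 2.41, a fold of 5.33. Their deviations ran from 2.02 at PYROXD1 to 2.99 at PPFIBP1. LDHB, a lactate dehydrogenase subunit (chr12:21809915-21811234), had 380 CPM in KMS26, against a median of 64.2 and a highest value of 116.3 in the other 21 lines, and the RNA polymerase II mediator subunit MED21 183 CPM against 53.2. KMS26 did not overlap the other lines at any of the 18.

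**Figure D4:**
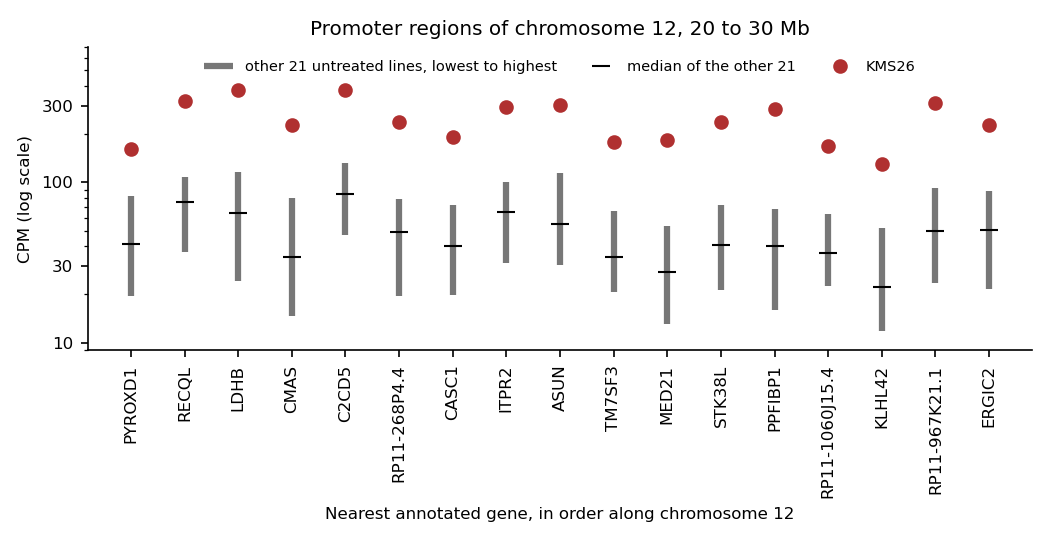
CPM (log scale) of 17 of the 18 promoter regions on chromosome 12 between 20 and 30 Mb, in order along the chromosome. Red points are KMS26, bars run from the lowest to the highest of the other 21 untreated lines and ticks mark their median. Every red point lies above its bar, at LDHB by 380 to 116.3 CPM.

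Of the other segments, 2 neighbouring ones on chromosome 8 were high in KMS18, with medians of 1.71 over 5 regions between 130 and 140 Mb and 1.57 over 20 regions between 140 and 150 Mb. All of these regions, 5 of 5 and 20 of 20, were above the mean of the lines. On chromosome 17 between 10 and 20 Mb, KMS26 had a median of 1.56, with 18 of 23 regions above the mean, and deviations ran from -0.69 to 3.09. The lowest medians were -1.40 in OCIMY5 on chromosome 7 between 80 and 90 Mb (9 regions), -1.31 in KMS18 on chromosome 2 between 240 and 250 Mb (6 regions) and -1.29 in KMS12PE on chromosome 1 between 200 and 210 Mb (34 regions).

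Lenalidomide was then compared with no treatment in the 6 paired lines. The share of counts in the promoter regions went from 33.5% to 34.5% in Karpas620, from 39.4% to 36.8% in KMS27, from 37.2% to 35.9% in L363, from 30.2% to 27.8% in MM1S, from 31.2% to 29.9% in OPM2 and from 27.44% to 27.96% in RPMI8226. It was lower in 4 lines and higher in 2, and the treated and untreated ranges overlapped. The mean log2 change was -0.04 ± 0.07 (SD, n = 6 lines, p = 0.188 in a two-sided exact sign-flip permutation test, which cannot go below 0.0313 here). Against the 793 distal regions open in all libraries, the change differed by -0.01 ± 0.05 (SD, n = 6, exact sign-flip permutation p = 0.781). No shift of these promoters as a whole was detectable with 6 lines.

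Few single promoters passed the test. Counts were compared across all 37732 regions that passed the filter, with the line as a block, by edgeR's quasi-likelihood test with Benjamini-Hochberg adjustment and a threshold of 0.05. Of the 5254 promoter regions, 82 (1.56%) were called, where 5.4% of all regions tested were called. Rises were called at 49 (0.933%, against 4.17% of all regions) and falls at 33 (0.628%, against 1.22%). The rule asked for a peak in the treated and untreated libraries alike, so starts with a peak in only 1 condition were left out beforehand. The lower shares accompany the rule and were not tested. The median log2 change was -0.046 over the promoter regions and -0.011 over all regions. Every line was assayed once per condition, so the spread behind these calls is the spread between lines. Without the line as a block no region was called, and 16 of the promoter regions had an unadjusted p under 0.05. DESeq2 called 20 with the block (0.381%, where 2.21% of all regions tested were called).

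The split between rises and falls depended on the scaling. Rises were 59.8% of the calls, but 90% with scaling factors from the promoter regions alone (99 raised and 11 lowered), 87.3% with a trend on mean count removed (96 and 14) and 43.0% with a trend on GC content removed (43 and 57). Among the calls over all regions tested, rises were 77.4%, and in the same order 86.4%, 72.6% and 73.3%. Leaving out the RPMI8226 pair, whose treated library had 4248017 counts against 2117764, raised the number called to 139, 69 of them lowered. Leaving out KMS27 left 38 called, L363 43, MM1S 47 and OPM2 51, with 9 to 13 of them lowered. Over all regions tested, 6.74% were called without RPMI8226, 3.63% without KMS27, 3.6% without L363, 3.22% without MM1S and 3.55% without OPM2.

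Changes were small. Called rises ran from 0.28 to 0.89 on the log2 scale and 10 of 49 exceeded a fold of 1.5, while called falls ran from -0.23 to -0.42 and none of 33 reached that fold. All 6 lines moved the same way at 63 of the 82. Among regions with a mean log2 CPM of 6 to 7, 43 of 2328 promoter regions were called (1.85%), 24 of 461 other regions at a start (5.21%) and 37 of 333 distal regions (11.1%). Between 5 and 6, the shares were 0.869%, 3.67% and 13.01%. Between 4 and 5, 6 of 270 promoter regions (2.22%) and 71 of 2803 other regions at a start (2.53%) were called, so the low share held beside starts of like level above that only. The other starts lack a peak in some library by definition, so this difference too accompanies the rule and was not tested.

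The largest rise was at CD274, which encodes PD-L1, the ligand of the T cell checkpoint receptor PD-1 (chr9:5450158-5450987). Its region, whose stretch with an interferon response match is printed above, went from a lowest, median and highest of 12.5, 15.6 and 22.3 CPM to 20.3, 31.9 and 52.6 CPM over the 6 lines, a log2 change of 0.89 ± 0.16 (SE, edgeR adjusted p = 0.000574). All 6 lines rose, and the groups overlapped at 20.3 to 22.3 CPM. GIPC1, an adaptor of endocytic trafficking (chr19:14606726-14607456), went from 7.90, 12.3 and 37.7 to 7.99, 25.1 and 60.4 CPM (0.85 ± 0.17, SE, edgeR adjusted p = 0.00166). MM1S changed by 0.01 on the log2 scale there, and the other 5 lines by 0.55 to 1.49.

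PPFIBP1, which encodes liprin beta 1 (chr12:27676485-27677577), went from 35.9, 44.9 and 65.2 to 41.7, 87.0 and 110 CPM (0.73 ± 0.10, SE, edgeR adjusted p = 1.08e-05), the smallest adjusted p among the promoter regions. PPAPDC1B, a lipid phosphatase (chr8:38125875-38127147), went from 21.7, 34.1 and 51.9 to 33.2, 51.9 and 82.4 CPM (0.67 ± 0.10, SE, edgeR adjusted p = 6.25e-05), with a change of 0.54 to 0.78 in each of the 6 lines. TRAF3IP1, a part of the transport machinery of cilia (chr2:239228606-239229256), went from 6.87, 11.8 and 18.4 to 13.1, 17.9 and 31.2 CPM (0.67 ± 0.18, SE, edgeR adjusted p = 0.0231). CD274, GIPC1, PPFIBP1 and PPAPDC1B stayed called in all 14 alternatives that kept the block, and TRAF3IP1 in 10.

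The largest falls were smaller than the largest rises. Those named are the largest among falls in all 6 lines, and ECE1 (-0.41), which was higher in 1 line, fell by more than HAX1. DTD2, which clears wrongly charged tRNA (chr14:31926101-31927013), went from 22.7, 40.9 and 77.7 to 17.6, 29.6 and 64.6 CPM (-0.42 ± 0.12, SE, edgeR adjusted p = 0.0236). ANXA2, the calcium-dependent membrane binder annexin A2 (chr15:60689036-60691110), went from 26.1, 37.6 and 79.3 to 22.1, 26.3 and 57.4 CPM (-0.41 ± 0.11, SE, edgeR adjusted p = 0.0267). HAX1, a mitochondrial survival protein (chr1:154244565-154245400), went from 44.9, 49.0 and 91.3 to 29.4, 42.9 and 55.1 CPM (-0.39 ± 0.10, SE, edgeR adjusted p = 0.019). These 3 fell in all 6 lines, yet the treated and untreated ranges overlapped widely, and they were called in 9, 8 and 10 of the 14 alternatives with the block.

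GTF3C1, a subunit of the RNA polymerase III factor TFIIIC (chr16:27560839-27561740), went from 45.3, 59.5 and 76.2 to 33.4, 46.3 and 55.1 CPM (-0.38 ± 0.10, SE, edgeR adjusted p = 0.0198). ZNF692, a zinc finger repressor (chr1:249152113-249153606), went from 103.3, 139 and 234 to 85.7, 96.7 and 207 CPM (-0.37 ± 0.07, SE, edgeR adjusted p = 0.00141). Of the 5 falls named, ZNF692 was the one called in all 14 alternatives with the block.

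**Figure D5:**
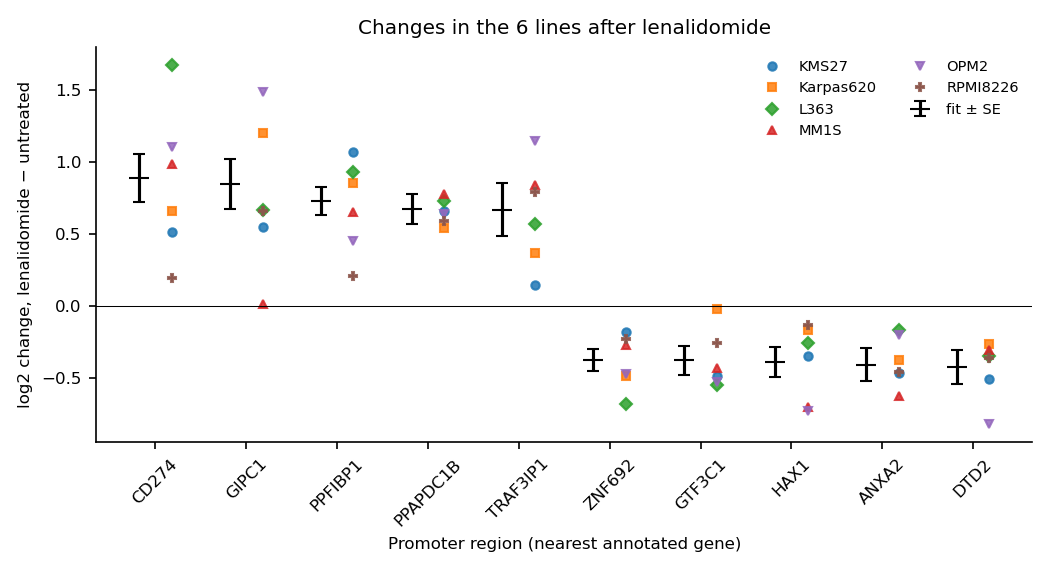
Log2 change (lenalidomide minus untreated, of CPM plus 1) in each of the 6 lines (symbols) at the 5 promoter regions with the largest called rise and the 5 with the largest called fall among those that moved the same way in all 6 lines, with the fitted change ± SE in black. By that choice all symbols of the left 5 lie above 0 and all of the right 5 below, with CD274 fitted at 0.89 and DTD2 at -0.42.

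Some further called regions are named after their values were seen. KDSR, an enzyme of sphingolipid synthesis (chr18:61033253-61035238), went from 36.4, 60.5 and 72.9 to 59.8, 90.5 and 102.6 CPM (0.55 ± 0.09, SE, edgeR adjusted p = 6.91e-05), and ACSS2, which makes acetyl-CoA from acetate (chr20:33463674-33464627), from 19.8, 39.7 and 80.3 to 43.4, 51.4 and 105 CPM (0.53 ± 0.12, SE, edgeR adjusted p = 0.00307). Both rose in all 6 lines and were called in all 14 alternatives with the block. MDM2, the ubiquitin ligase that degrades p53 (chr12:69201179-69203023), fell in all 6 lines, from 90.2, 116.3 and 148 to 75.3, 93.6 and 123 CPM (-0.31 ± 0.07, SE, edgeR adjusted p = 0.00943). The low-CpG region of TRIM38, an antiviral ubiquitin ligase, rose by 0.51 ± 0.14 (SE, edgeR adjusted p = 0.0192), in all 6 lines. MDM2 was called in 11 and TRIM38 in 10 of the 14 alternatives with the block. Among the losses, MDM2 had an adjusted p of 0.0501 without MM1S, and TRIM38 0.175 without Karpas620, 0.0798 without L363 and 0.0525 without MM1S.

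Among the gene lists, with 1 region counted per gene, 2 regions were called, where 1.56% of all 5254 promoter regions were. Of the 7 interferon-stimulated genes, IFIH1, which encodes the RNA sensor MDA5 and shares its region with GCA (chr2:163174398-163175851), went from 34.3, 77.7 and 84.995 to 52.4, 85.6 and 110 CPM (0.37 ± 0.10, SE, edgeR adjusted p = 0.0195), higher in 5 of 6 lines. It was called in 9 of the 14 alternatives with the block, and lost with DESeq2, with the GC trend removed and without Karpas620, KMS27 or OPM2 (adjusted p = 0.127, 0.0564, 0.139, 0.102 and 0.0591). STAT2, a signal carrier of interferon (chr12:56753695-56754577), was higher in all 6 lines but missed the threshold (0.29 ± 0.09, SE, edgeR adjusted p = 0.0535). The 7 had a median of 0.18 and ran from -0.11 to 0.37. The median over all regions tested was -0.011, and with 7 regions nothing is drawn from the difference. Of the 44 ribosomal protein regions, RPS3A was called (-0.28 ± 0.09, SE, edgeR adjusted p = 0.0458), in 3 of the 14 alternatives with the block. A region named RPL27A (chr11:8710053-8710897) was called too (-0.35 ± 0.10, SE, edgeR adjusted p = 0.0226), lower in all 6 lines. It is not the region counted for that gene among the 44, and is named after its values were seen.

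None of the 22 proteasome, 22 spliceosome, 24 complex I, 16 replication licensing, 25 secretory, 5 RNA polymerase II, 5 cereblon and 3 plasma cell regions was called by edgeR or by DESeq2, and in that order 3, 0, 2, 3, 2, 0, 0 and 0 of them had an unadjusted p under 0.05 in edgeR. Their median log2 changes were -0.12, -0.03, -0.02, -0.09, -0.07, 0.04, -0.04 and 0.06. Over all 5254 promoter regions 1.56% were called, and over all regions tested 5.4%. At the first share each list is too small for 0 calls to be read as a result. CRBN, the target of the drug, had -0.21 (SE 0.12, edgeR adjusted p = 0.35). Of the 16 replication licensing regions 1 had a change above 0, where 36.3% of all 5254 promoter regions did, a share that was 49.6% with scaling factors from the promoter regions alone and 54.4% without a filter. By CpG, 4 of the 99 regions with a ratio of at most 0.45 were called (4.04%), 30 of 2642 between 0.75 and 0.9 (1.14%) and 7 of 564 above 0.9 (1.24%). These shares stand beside the same 1.56% over all 5254. Regions with interferon response letters near the start were called at 11 of 301 (3.65%), and those without at 63 of 4489 (1.40%), the highest share with any of the 14 motifs being 3.77% for ZBTB33 (4 of 106).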

How the data were processed

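ATAC-seq libraries of 22 untreated myeloma lines and of 6 of them after lenalidomide were used. Per the submitters' processing notes and the study's methods, the authors aligned reads to GRCh37 with Bowtie2 2.2.6, marked duplicates with SAMtools 1.7, called peaks in each library with MACS2 2.1.0.20151222 and merged them into regions. The deposited counts are whole numbers per region and library, not normalised, and sum to 1599857 to 5564534 per untreated library and 2168680 to 4248017 per treated one. A further deposited column of whole numbers, which the authors' file does not define, was read as the number of peaks of each library per region and chose the promoter regions. Whether duplicates were removed, read ends shifted, or reads or fragments counted for ATAC-seq is not given in the sources used here.

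The members, gene lists, motifs and tests were chosen with earlier results of these data known. CPM were computed from total counts in regions, and log2 values with a pseudocount of 1. Counts of the 12 paired libraries were filtered with filterByExpr, scaled by TMM factors and tested with edgeR 4.0.16 (R 4.3.3), with the line as a block and Benjamini-Hochberg adjustment over all 37732 regions. Pairing comes from the labels, which give the same line, and the treated library correlated with its own line at 0.762 to 0.859 (0.124 to 0.258 with the best other line). The fit was tested on simulated data. Alternatives were DESeq2 1.42.0, other scalings and filters, GC and mean-count trends, counts drawn down within pairs, no block, and leaving out each line. Leaving out PE1 or KMS34, and the untreated libraries of the same 6 lines, were alternatives chosen after seeing the data.

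Regions named were the 5 largest called rises and falls seen in all 6 lines, the 5 highest, lowest, most and least variable, the highest, lowest and called of each list (in the cereblon, plasma cell, interferon and erythroid lists others too), and the 3 with the most starts. Others are said to be named after their values were seen. Starts are those of GENCODE release 44 on GRCh37. Copies were sought as words of 31 bases. Python 3.11.15, pandas 2.3.3 and pysam 0.24.0 were used. A few items are not reported here.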

Additional observations from a re-analysis of the deposited data

How the results depend on the processing

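The 82 promoter regions called with lenalidomide became 20 with DESeq2 (19 raised, 1 lowered), 0 without the replicate block (0 raised and 0 lowered, 16 at an unadjusted p under 0.05) and 38 to 139 when 1 line was left out (28 to 70 raised, 9 to 69 lowered). The share called over all regions tested moved as well, from 5.4% to 2.21% with DESeq2, 0% without the block and 3.22% to 6.74% with 1 line left out. Scaling factors from the promoter regions gave 99 raised and 11 lowered, a trend on mean count removed 96 and 14, and a trend on GC content removed 43 and 57. No filter on low counts gave 68 raised and 1 lowered, and at least 10 counts in each library 65 and 17, so that rises were 98.6% and 79.3% of the calls. Among the calls over all regions tested, rises were 88.2% and 80.4%. The cause of these shifts was not tested. The median log2 change, -0.046, was 0.0133 without a filter. The change in share against distal regions open in all libraries, -0.0059, turned to 0.00407 and 0.0049 with medians of log2 CPM at pseudocounts of 1 and 0.1, to 0.0059 with regions open in all 22 untreated libraries, and ran from -0.0217 to 0.00458 when 1 line was left out (0.00415 without L363). The change in share itself kept its sign and stayed unsupported, from -0.0596 to -0.0139.

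Under 15 alternatives, 20 called regions were followed by name, and none reversed. They include MT1X, RBPJ, CHEK1 and STARD4-AS1, which are not described above and were chosen after their values were seen. They kept their call in 218 of these fits and lost it in 82, 20 of which came without the block and 13 with DESeq2. The median SD over lines, 0.491, was 0.418 in the 6 lenalidomide libraries, 0.407 in the untreated libraries of the same lines (added after seeing the data), 0.4998 with TMM-scaled CPM and 0.502 with a pseudocount of 0.1. The share of variation held by chromosomes, 20.7%, was 28.3% in the lenalidomide libraries, 27.4% in their untreated partners (added after seeing the data) and 54.7% with bins of 10 Mb. The rule gave 5295 regions with the untreated libraries alone, 6516 with 27 of 28 libraries and 7642 with at least 5 CPM in all libraries, which held 99.8% of the promoter regions. PE1, with the fewest counts, lacked the peak at 492 of 1262 regions and XG-6, with nearly the same counts, at 75, and the part of depth was not tested. Each line was assayed once per condition. The p-values therefore rest on how the change within a line differed over the 6 paired lines, together with the noise of single libraries.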

Other observations

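Some of the promoter regions served many genes. The region named RP11-458D21.5 (chr1:145208578-145210332) held starts of 6 genes, among them NBPF10 and the NOTCH2NL copies, and had 153 CPM, from 82.2 in OCIMY5 to 272 in LP1. Of its 31-base words, 77.4% occur elsewhere, so its level is uncertain. The region of RP11-785H5.2 (chr12:11323603-11324490) held starts of 5 genes, with PRH1 and the bitter taste receptor TAS2R14 among them, at 36.1 CPM. NDUFA11, a complex I subunit, shared its region (chr19:5903572-5905116) with VMAC and 2 noncoding genes, at 113 CPM.

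The share of start regions that were open in all libraries differed between chromosomes. It was 35.0% on chromosome 3 (371 of 1060), 20.8% on chromosome 21, 20.1% on chromosome 17 and 11.5% on chromosome 22 (47 of 410). The medians of chromosome 22 in single lines ran from -0.94 in KMS12PE to 0.49 in KMS26 on the log2 scale.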
